A study of Mus musculus with 18 samples.

Results

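Interleukins and their receptors were described in 18 B16F10 melanomas, a mouse melanoma line grown under the skin of C57BL/6 mice. The members are the genes of the deposited expression table whose symbol begins with Il followed by a digit, with Ilf and Ilk names left out and with a value above 0 in at least 1 tumor. Of 86 names that matched, 1 antisense gene (Il1bos) was dropped and 3 (Il9, Il31 and Il1rapl2) were listed at 0 in every tumor, so that 82 of the 41079 genes in the table were kept. They divide into 38 members of the ligand side (36 ligands and the antagonists Il1rn and Il36rn), 42 of the receptor side (38 receptor chains, the decoys Il1r2 and Il13ra2, and the soluble inhibitors Il18bp and Il22ra2) and 2 enzymes of another kind, Il4i1 and Il4i1b.

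Tumors were started in the right flank of female mice and were injected directly from day 6, at about 50 mm3, every 2 days. They were collected 48 h after the last injection, and the labels give no age for the mice. The 6 groups of 3 tumors received PBS, the PD-L1-directed Pistol ribozyme alone (Free PS473), the ribozyme on cationic polymers (PS473@CPs), the manganese metal-organic framework alone (NKMOF-101-[Mn]), the framework with the catalytically inactive mutant ribozyme (M5@NKMOF-101-[Mn]) or the framework with the active ribozyme (PS473@NKMOF-101-[Mn]). All groups carry the same tumor line. Sample titles of the last group read 102 in place of 101, whereas the treatment text names only 101. A tumor is named below by its group and the replicate number of its label, and p values measure the spread between these tumors. The expression unit is FPKM, fragments scaled to the length of the gene and to the depth of the library, which allows levels of different genes to be set side by side.

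Interleukins are secreted signals between leukocytes, and between leukocytes and stromal or epithelial cells. Most of them bind receptors that pair a specific chain with a shared one, such as Il2rg for the common gamma chain family, Il6st (gp130) for the IL-6 family, Il10rb for IL-10 relatives and Il1rap for the IL-1 family, and they signal through JAK kinases and STAT factors or, for IL-1 and IL-17 relatives, through adaptors that lead to NF-kB. In tumors, these signals are known for steering macrophages, neutrophils and T cells, and several are held in check by natural antagonists, decoy receptors or binding proteins. In whole tumor tissue, fewer cells of a type and less RNA per cell cannot be told apart.

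Across the series, 17212000 to 28401000 fragments per tumor were recovered from the steps between low values, so that 3 fragments of a gene of 1 kb correspond to 0.106 to 0.174 FPKM. The 5 melanoma markers gave a mean log2(FPKM + 1) of 9.14 to 9.87 in every tumor. Cd274, the PD-L1 gene that the ribozyme targets, was at 9.74 to 32.9 FPKM in PS473@NKMOF-101-[Mn] tumors, 12.3 to 21.5 in PBS, 11.7 to 14.0 in Free PS473, 11.9 to 24.5 in PS473@CPs, 14.1 to 15.9 in NKMOF-101-[Mn] and 21.0 to 28.2 in M5@NKMOF-101-[Mn], so that the ribozyme groups overlapped PBS. Keratinocyte genes set some tumors apart. The 6 skin epithelium markers found of 7 summed to 2960 FPKM in PBS 2, 1100 in PBS 3, 3010 in PS473@CPs 2 and 861 in NKMOF-101-[Mn] 1, and to under 1 FPKM in 8 tumors, of which 5 had at least 4 of these genes at 0.

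The promoters of 4 members are shown because their transcripts are those that the results turn on. Il6 is the classical inflammatory ligand, and Il18bp is the gene that moved with interferon response genes. Il1b and its antagonist Il1rn moved with neutrophil markers within the 14 tumors of low neutrophil score. The 250 bases before the annotated start are from RefSeq (build GRCm38.p6, 5′ to 3′ on the strand of the gene), and capitals mark matches, on either strand, to any of 5 motifs: NF-kB (GGGA and TTTCC parted by 1 base of any kind), AP-1 (TGANTCA), the interferon-stimulated response element (a pair of GAAA runs parted by 2 bases of any kind), GAS (TTCNNNGAA) and C/EBP (TTGNNCAA).
Il6, chr5:30012864-30013113, plus strand: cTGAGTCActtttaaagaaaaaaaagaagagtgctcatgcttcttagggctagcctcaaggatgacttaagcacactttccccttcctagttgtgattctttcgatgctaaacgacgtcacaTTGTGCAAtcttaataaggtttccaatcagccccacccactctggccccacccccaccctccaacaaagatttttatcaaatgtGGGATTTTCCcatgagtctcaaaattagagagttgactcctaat
Il1b, chr2:129371140-129371389, minus strand: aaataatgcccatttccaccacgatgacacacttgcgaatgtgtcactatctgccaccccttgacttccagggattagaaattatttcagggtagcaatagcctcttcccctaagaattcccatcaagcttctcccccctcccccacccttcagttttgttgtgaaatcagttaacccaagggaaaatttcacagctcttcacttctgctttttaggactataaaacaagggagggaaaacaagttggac
Il1rn, chr2:24336610-24336859, plus strand: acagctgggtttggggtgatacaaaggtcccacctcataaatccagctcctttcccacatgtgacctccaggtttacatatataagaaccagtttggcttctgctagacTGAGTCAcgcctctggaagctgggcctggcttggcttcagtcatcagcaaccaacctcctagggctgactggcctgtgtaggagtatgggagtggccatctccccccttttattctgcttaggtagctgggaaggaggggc
Il18bp, chr7:102018233-102018482, minus strand: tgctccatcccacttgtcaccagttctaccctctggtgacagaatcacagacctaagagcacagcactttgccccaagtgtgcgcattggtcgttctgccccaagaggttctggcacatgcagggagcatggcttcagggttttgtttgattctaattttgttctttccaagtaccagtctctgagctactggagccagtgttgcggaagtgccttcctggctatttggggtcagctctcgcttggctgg

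Il6 held 3 matches, to NF-kB from 44 to 35 bases before the start, to C/EBP from 128 to 121 and to AP-1 from 249 to 243, and none of them overlapped. Il1rn, for which the first of 3 listed starts is shown, held 1 AP-1 match from 141 to 135 bases before it. Il1b and Il18bp held none of these letter strings in this window. In the GENCODE M21 annotation (build GRCm38), Il18bp runs to chr7:102018690 on the minus strand. The window shown for it lies within the gene there, and bases before that start were not searched. Promoters were matched for 60 of the 82 members (74 starts). The NF-kB string was found in 2.7% of member promoters (Il6 and Il16) and in 0.356% of the 32851 promoters of the table, AP-1 in 16.2% and 6.75%, the interferon-stimulated response element in 2.7% and 2.98%, GAS in 8.11% and 7.02%, and C/EBP in 8.11% and 5.65%. A match is a run of letters and not a measured binding site.

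Summed over members, the receptor side exceeded the ligands, although single ligands exceeded their own receptors. Of the 42 members of the receptor side 14 averaged 1 FPKM or more, against 8 of 38 on the ligand side, and 11 and 14 averaged under 0.1 FPKM. The receptor side summed to 86.6 to 164 FPKM per tumor (median 110). The 36 ligands, without the antagonists Il1rn and Il36rn, summed to 9.83 to 77.0 (median 14.8). Il10rb, the shared chain of the IL-10, IL-22 and interferon lambda receptors, was the most abundant receptor in all 18 tumors and supplied 18.6% to 45.5% of the summed receptor level. The heat map of members by tumor shows steady and scattered rows on both sides.

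**Figure D1:**
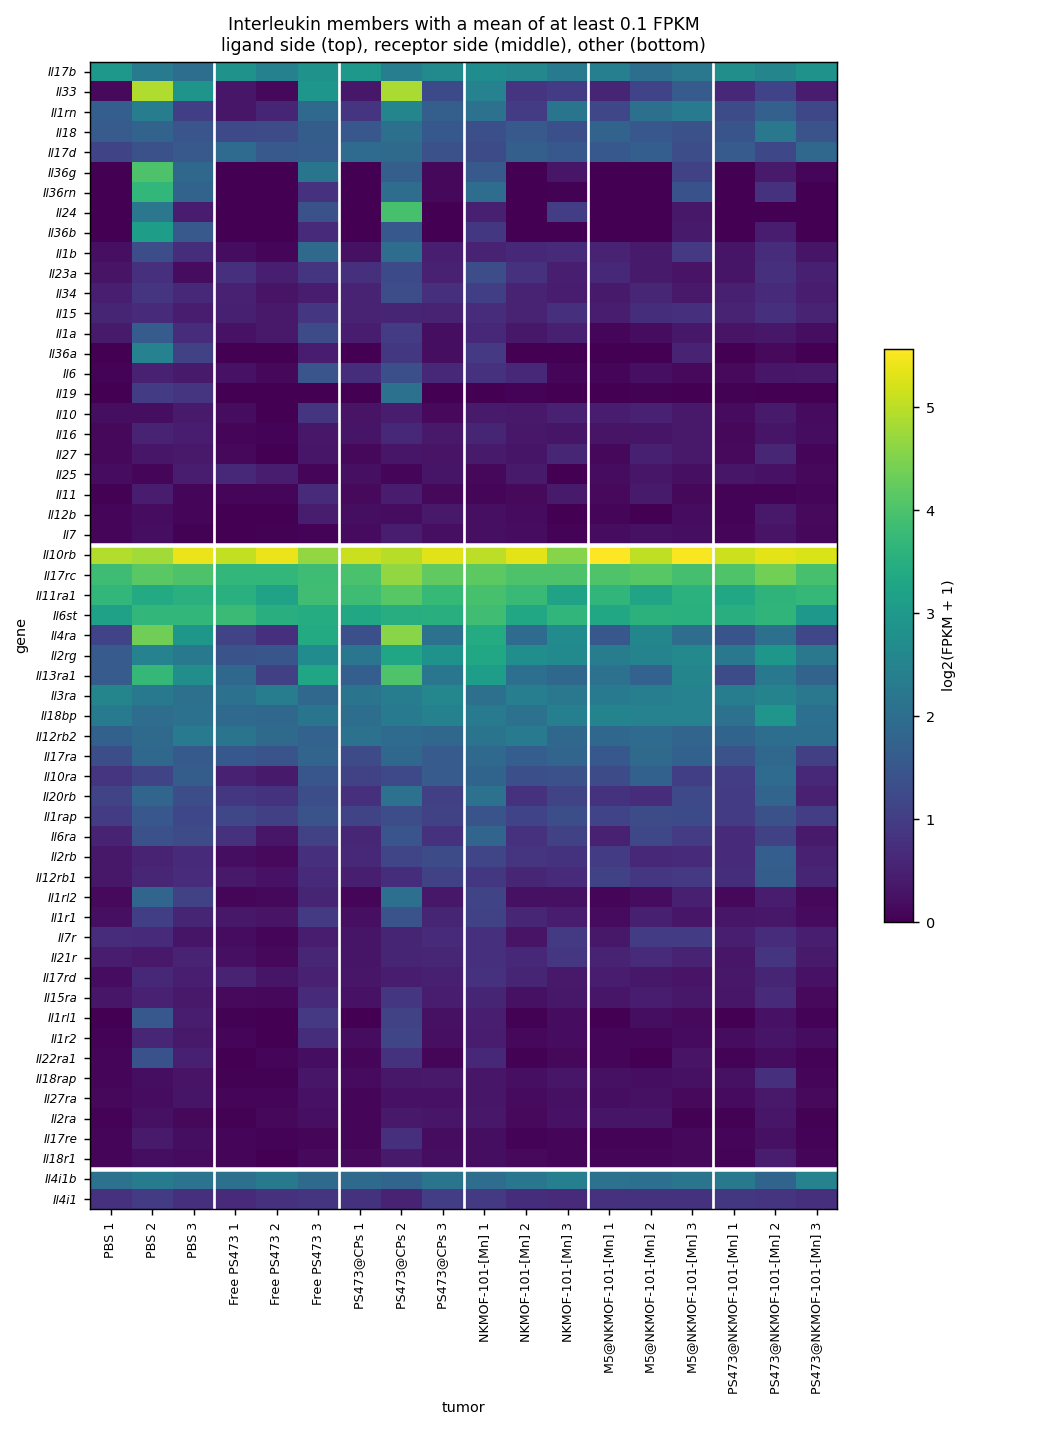
Levels of the 57 members with a mean of at least 0.1 FPKM (rows, italic symbols) in the 18 tumors (columns, groups parted by vertical white lines), as log2(FPKM + 1) in color. Ligand side, receptor side and the other 2 members are parted by horizontal white lines. Il10rb is the brightest row in every tumor but PBS 2, where it is at 26.8 FPKM, below Il33. Il33 is bright only in a few columns such as PBS 2 (28.9 FPKM) and PS473@CPs 2 (28 FPKM).

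A first set of ligands was present in every tumor within a narrow range. Il17b, an IL-17 relative whose known receptor is Il17rb, was at 6.79, 3.98 and 3.04 FPKM in PBS, 6.26, 4.42 and 6.27 in Free PS473, 6.82, 4.23 and 5.38 in PS473@CPs, 5.52, 4.96 and 3.83 in NKMOF-101-[Mn], 4.27, 3.01 and 3.67 in M5@NKMOF-101-[Mn] and 5.69, 4.82 and 6.21 in PS473@NKMOF-101-[Mn]. It was the most abundant ligand in 14 of 18 tumors, all 3 M5@NKMOF-101-[Mn] values lay below all values of PS473@NKMOF-101-[Mn] and of Free PS473, and all other pairs of groups overlapped. Between the mutant and the active ribozyme in the framework, 4.48% of genes that averaged 1 FPKM or more had no overlap. The share was not counted for Free PS473 against the mutant. Il18, an IL-1 family cytokine kept as an inactive precursor in many cells, ranged from 1.34 to 3.7 FPKM, with its highest value in PS473@NKMOF-101-[Mn] 2. Il17d, a second IL-17 relative, ranged from 1.2 to 2.88 FPKM. Il15, which sustains NK and memory T cells, stayed between 0.293 and 0.849 FPKM.

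A second set was high in a few tumors and near 0 in the others. Il33, an alarmin of epithelial and stromal nuclei, was at 0.108, 28.9 and 6.42 FPKM in PBS, 0.272, 0.0804 and 6.56 in Free PS473, 0.281, 28 and 1.38 in PS473@CPs, 4.52, 0.824 and 0.993 in NKMOF-101-[Mn], 0.497, 1.17 and 2.05 in M5@NKMOF-101-[Mn] and 0.545, 1.18 and 0.348 in PS473@NKMOF-101-[Mn]. PBS 2 and PS473@CPs 2 stood above the rest, each group holds low tumors, and all groups overlap. It was the most abundant ligand in PBS 2, PBS 3, Free PS473 3 and PS473@CPs 2. The IL-36 cytokines Il36a, Il36b and Il36g, which act on keratinocytes and dendritic cells, and their antagonist Il36rn were also highest in PBS 2.

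Il36g was at 0, 15.1 and 2.65 FPKM in PBS, 0, 0 and 3.46 in Free PS473, 0, 2.2 and 0.0855 in PS473@CPs, 1.92, 0 and 0.256 in NKMOF-101-[Mn], 0, 0 and 1.13 in M5@NKMOF-101-[Mn] and 0, 0.318 and 0.0594 in PS473@NKMOF-101-[Mn]. Its antagonist Il36rn reached 11.9 FPKM in PBS 2 and was listed at 0 in 9 tumors, Il36b reached 7.69 and Il36a 4.51 in the same tumor. In the GENCODE M21 annotation (build GRCm38), these 4 genes and Il1rn lie within 198 kb, at chr2:24153161-24351494. Il24, a relative of IL-10 made in inflamed skin, was at 14.4 FPKM in PS473@CPs 2, 3.65 in PBS 2 and at 0 in 11 tumors, and its neighbour Il19 at 3.3 in PS473@CPs 2 and at 0 in 12.

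The 2 tumors with the highest Il33 level, PBS 2 and PS473@CPs 2, also had the highest skin epithelium score. The summed skin epithelium list ran from 0.147 to 2960 FPKM in PBS, 0.0506 to 241 in Free PS473, 0.0634 to 3010 in PS473@CPs, 0.0673 to 861 in NKMOF-101-[Mn], 0.131 to 327 in M5@NKMOF-101-[Mn] and 0.447 to 261 in PS473@NKMOF-101-[Mn]. Of the 82 members, 24 (29.3%) had their highest value in PS473@CPs 2, where 9.67% of all genes above 0 were highest, and 10 (12.2%) in PBS 2 (6.95% of all genes). A further 11 (13.4%) were highest in PS473@NKMOF-101-[Mn] 2 (8.02% of all genes), whose skin epithelium score of 4.94 was below the 6.76 and 7.37 of those tumors. In NKMOF-101-[Mn] 1 (score 6.49) it was 8 (9.76%, beside 6.35% of all genes), and in Free PS473 3 (score 3.32) 7 (8.54%, beside 9.7%). The shares were 3.66% beside 4.26% in PBS 3 (score 6.11) and 1.22% beside 4.96% in M5@NKMOF-101-[Mn] 3 (score 4.9). The part of skin tissue in these levels was not tested beyond the fits given with the comparisons.

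The classical inflammatory and T cell cytokines were low. Il1b, the secreted inflammasome product, was at 0.174, 1.49 and 0.645 FPKM in PBS, 0.141, 0.0715 and 2.82 in Free PS473, 0.195, 2.99 and 0.374 in PS473@CPs, 0.468, 0.553 and 0.604 in NKMOF-101-[Mn], 0.479, 0.319 and 0.889 in M5@NKMOF-101-[Mn] and 0.244, 0.637 and 0.251 in PS473@NKMOF-101-[Mn]. Without a stated strand setting, its fragments cannot be told apart from those of the antisense gene Il1bos. Its antagonist Il1rn was the more abundant of both, at a mean of 2.20 FPKM (0.262 to 4.76), and Il1a ranged from 0.0589 to 2.07. All groups overlapped for Il1b and Il1rn. For Il1a, all PBS tumors lay above all tumors that received the mutant or the active ribozyme in the framework. For it, all NKMOF-101-[Mn] tumors also lay above all PS473@NKMOF-101-[Mn] tumors. Its mean of 0.492 FPKM was below the level at which members were tested. Of the genes at that level, 8.11%, 4.66% and 7.91% had no overlap in these comparisons, in this order.

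Il6 was at 0.0446, 0.428 and 0.319 FPKM in PBS, 0.207, 0.0929 and 1.78 in Free PS473, 0.65, 1.58 and 0.556 in PS473@CPs, 0.745, 0.55 and 0.0671 in NKMOF-101-[Mn], 0.0692, 0.178 and 0.105 in M5@NKMOF-101-[Mn] and 0.101, 0.269 and 0.292 in PS473@NKMOF-101-[Mn]. Only Free PS473 3 and PS473@CPs 2 passed 1 FPKM. All 3 PS473@CPs tumors lay above all PBS tumors and above all tumors with mutant or active ribozyme in the framework. Among genes that averaged 1 FPKM or more, 5.11% had no overlap between PS473@CPs and PBS. The share was 4.12% between PS473@CPs and PS473@NKMOF-101-[Mn], and it was not counted for M5@NKMOF-101-[Mn]. Il6 averaged below that level, at which members were tested. Over the 9 tumors with framework the median was 0.178 FPKM and over the 9 without it 0.428, a difference of means of -0.3 on the log2(FPKM + 1) scale (2-sided exact permutation test, p = 0.134, 48620 splits, chosen after the values were seen).

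Cytokines that define T cell subsets were close to the limit of detection. Il2 was supported by 13.5 fragments over all 18 tumors, Il4 by 10.0, Il5 by 12.0, Il13 by 19.5, Il17f by 30.5 and Il17a by 4.0, the last at 0 in 16 tumors. Of the IL-12 family, Il12a, the specific subunit of IL-12, was at 0 in 14 tumors, the shared subunit Il12b reached 0.359 FPKM, Il23a 1.48 and Il27 0.52. Il10 reached 0.79 FPKM in Free PS473 3 and was between 0 and 0.423 in the others. In a fit of all genes that averaged 0.1 FPKM or more, Il10, Il12b, Il23a and Il27 had no unadjusted p under 0.05 by limma in any of 11 comparisons (0 of 11 each, lowest adjusted p of 0.887 for Il27). These genes are only a part of the 57 members in that fit. Its results for the others, Il6 and Il1a among them, are not given here. The PS473@CPs tumors lay above the PBS tumors for Il12b, from 0.138 FPKM against up to 0.133. Of the genes that averaged 1 FPKM or more, 5.11% had no overlap between these groups. A value of 0 does not show that a gene was absent.

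**Figure D2:**
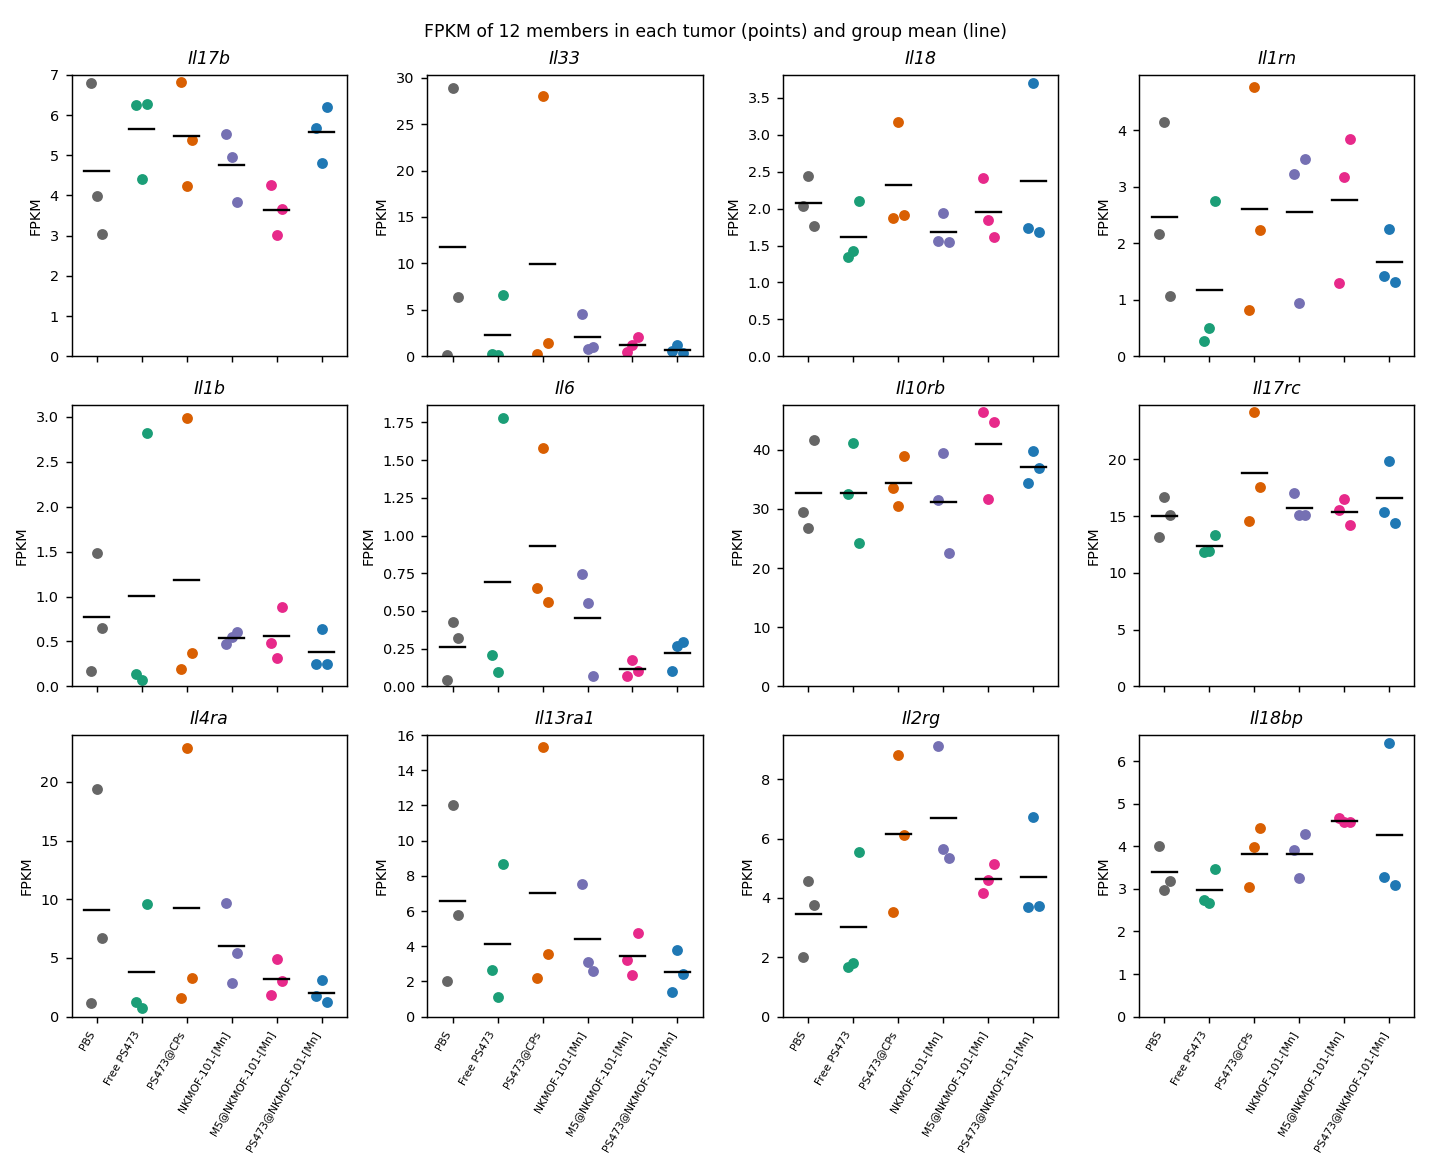
FPKM of 12 members in each tumor (points, colored by group) with the group mean (black line), 3 tumors per group. Il10rb lies between 22.5 and 46.4 FPKM and Il17b between 3.01 and 6.82 in all tumors, whereas Il33, Il4ra and Il13ra1 are high in single tumors of PBS and PS473@CPs, up to 28.9, 22.9 and 15.3 FPKM.

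Among the receptor chains, 4 of the most abundant stayed within about 2-fold. Il10rb ranged from 22.5 to 46.4 FPKM (2.06-fold), Il17rc, a chain of the IL-17A and IL-17F receptor, from 11.8 to 24.2 (2.06-fold), Il11ra1, the specific chain for IL-11, from 8.2 to 16.5 (2.01-fold), and Il6st from 6.79 to 13.5 (1.99-fold). Il11ra1 has near-identical copies (Il11ra2 and Il11ra3, means of 0.0122 and 0.00199 FPKM), and how fragments were divided among them is not given in the sources used here. Il3ra ranged from 2.7 to 4.94 FPKM, Il12rb2, the signaling chain for IL-12, from 2.32 to 3.87, Il17ra from 1.07 to 2.8 and Il1rap from 0.963 to 1.83. The enzyme gene Il4i1b ranged from 2.45 to 4.54 FPKM, with Il4i1 at 0.446 to 1.02, and these are related genes whose fragments may not be fully separable.

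Other chains, shared ones among them, varied more between tumors. Il4ra, the chain that IL-4 and IL-13 share, was at 1.17, 19.4 and 6.72 FPKM in PBS, 1.21, 0.71 and 9.59 in Free PS473, 1.58, 22.9 and 3.29 in PS473@CPs, 9.69, 2.85 and 5.46 in NKMOF-101-[Mn], 1.83, 4.9 and 2.99 in M5@NKMOF-101-[Mn] and 1.72, 3.14 and 1.28 in PS473@NKMOF-101-[Mn]. Its partner Il13ra1 ranged from 1.09 to 15.3 FPKM with the same 2 highest tumors, PS473@CPs 2 and PBS 2. Both groups that hold these tumors also hold low ones, so that the groups overlap. Il10ra, the ligand-binding chain for IL-10 on leukocytes, ranged from 0.313 to 2.85 FPKM, Il20rb from 0.42 to 3.28 and Il6ra from 0.256 to 2.54.

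The common gamma chain Il2rg, expressed by lymphocytes and macrophages, was at 2.02, 4.57 and 3.75 FPKM in PBS, 1.68, 1.79 and 5.54 in Free PS473, 3.53, 8.82 and 6.12 in PS473@CPs, 9.12, 5.66 and 5.33 in NKMOF-101-[Mn], 4.16, 4.59 and 5.15 in M5@NKMOF-101-[Mn] and 3.69, 6.71 and 3.71 in PS473@NKMOF-101-[Mn]. All 3 NKMOF-101-[Mn] tumors lay above all PBS and all M5@NKMOF-101-[Mn] tumors. Of the genes that averaged 1 FPKM or more, 6.02% had no overlap with PBS, and the share for M5@NKMOF-101-[Mn] was not counted. Its partner Il2rb ranged from 0.0993 to 2.18 FPKM, highest in PS473@NKMOF-101-[Mn] 2, and the IL-2 alpha chain Il2ra did not pass 0.299.

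Inhibitors were present at different levels. Il18bp, the secreted protein that binds and blocks IL-18, was at 4.0, 2.98 and 3.19 FPKM in PBS, 2.74, 2.68 and 3.47 in Free PS473, 3.04, 3.98 and 4.44 in PS473@CPs, 3.92, 3.25 and 4.29 in NKMOF-101-[Mn], 4.66, 4.56 and 4.57 in M5@NKMOF-101-[Mn] and 3.27, 6.43 and 3.08 in PS473@NKMOF-101-[Mn]. The M5@NKMOF-101-[Mn] tumors lay above all tumors of NKMOF-101-[Mn], PBS, Free PS473 and PS473@CPs. The highest tumor of all was PS473@NKMOF-101-[Mn] 2. Of the genes that averaged 1 FPKM or more, 8.11% had no overlap between M5@NKMOF-101-[Mn] and PBS. The shares for the other groups were not counted. Il18bp exceeded Il18 in its mean, 3.81 against 2.01 FPKM. The decoy receptor Il1r2 ranged from 0.00454 to 1.25 FPKM and the decoy Il13ra2 did not pass 0.115.

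In 20 interleukin systems, ligands were set beside the least abundant chain of their receptor, and few systems had both sides at 1 FPKM. Il17b, Il17d, Il34 and Il16 were not among them, and Il17rb, the known receptor of Il17b, averaged 0.0504 FPKM. For IL-17A and IL-17F the chains Il17ra and Il17rc were at 1 FPKM or more in 18 tumors and a ligand in 0. The same held for IL-11 (18 and 0), for IL-4 and IL-13 (17 and 0 each) and for IL-10 (14 and 0). The reverse held for IL-18, with the ligand in 18 tumors and both chains, Il18r1 and Il18rap, in 0. Both sides reached 1 FPKM for IL-36 in 4 tumors and for IL-1, IL-6 and IL-33 in 2 each. A level of RNA in bulk tissue does not show which cell carries the receptor.

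**Figure D3:**
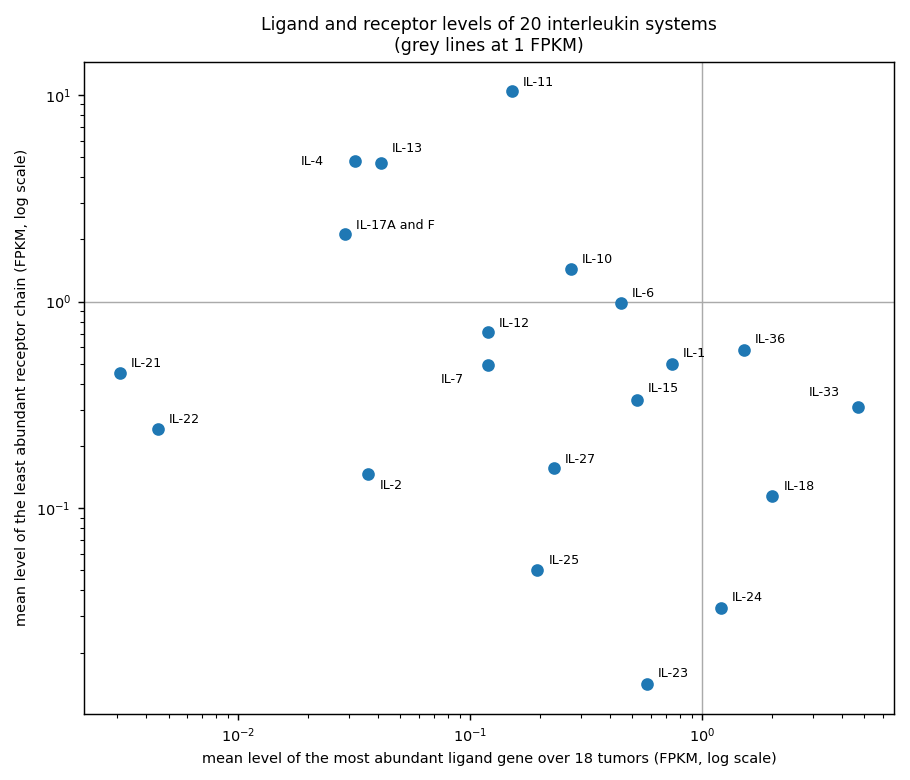
Mean level over 18 tumors of the most abundant ligand gene (x axis) and of the least abundant receptor chain (y axis) for 20 interleukin systems, both in FPKM on log scales, with grey lines at 1 FPKM. IL-11 (0.152 and 10.4), IL-4 and IL-13 and IL-17A and F lie at the upper left, and IL-18 (2.01 and 0.115) and IL-33 (4.68 and 0.309) at the lower right.

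The purpose of the groups was to separate the effect of the ribozyme, of the framework and of both. The 23 of 82 members that averaged 1 FPKM or more were tested with limma on log2(FPKM + 1) in a fit of all 12357 genes past that level. A member was counted when its adjusted p was under 0.05 and its change over 2-fold. No member was counted in any of the 12 comparisons, and neither was any other gene: percent counted was 0 of the 12357 genes in each. The 59 other members were below the level and are not in this fit. Of the 23, Il36g and Il36rn reached the level only through PBS (0.629 and 0.611 FPKM over the 15 other tumors) and Il24 only through PS473@CPs (0.488), so that their differences from those groups are tied to the filter and nothing rests on their p values.

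In PS473@NKMOF-101-[Mn] against PBS, 1 of 23 members had an unadjusted p under 0.05, beside 2.1% of all genes tested. That member was Il36g (log2 fold change -1.80, SE 0.84, 95% interval -3.59 to -0.01, adjusted p = 0.993 in limma), and its values were dominated by PBS 2, without which the change was -0.77. The median change of the 23 members was -0.04, against -0.01 for all genes, and 10 members were higher and 13 lower. Il36rn (-1.56, SE 0.81, adjusted p = 0.993) and Il33 (-1.92, SE 1.17, adjusted p = 0.993) had the next smallest p values, and were at -0.63 and -0.79 without PBS 2. The skin epithelium list summed to 0.447 to 261 FPKM in the first group and 0.147 to 2960 in PBS. With its score as a covariate the Il36g change was -1.12, and without PBS 2 and PS473@CPs 2 it was -0.77.

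In PS473@NKMOF-101-[Mn] against Free PS473, 1 of 23 members had an unadjusted p under 0.05, beside 4.98% of all genes. Il17rc was at 14.4 to 19.9 FPKM against 11.8 to 13.3, with no overlap (log2 fold change 0.39, SE 0.15, 95% interval 0.06 to 0.72, adjusted p = 0.946 in limma). It was the only 1 of the 23 whose groups did not overlap, beside 6.82% of all genes. The median change of the members was 0, against -0.04. For Il17rc, Free PS473 also lay below all tumors given the framework alone (from 15.1 FPKM) or with the mutant ribozyme (from 14.2). The PS473@CPs tumors lay above Free PS473 as well (from 14.6), whereas PBS (from 13.2) overlapped it. The separation was thus not particular to the active ribozyme in the framework. For these other separations the share of all genes was not counted. Without PS473@NKMOF-101-[Mn] 2 the Il17rc change was 0.26. Next by p were Il18bp (0.36, SE 0.19) and Il2rg (0.60, SE 0.36), at 0.08 and 0.36 without that tumor (adjusted p = 0.96 for both in limma).

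Against PS473@CPs, 0 of 23 members had an unadjusted p under 0.05 by limma, beside 2.29% of all genes, and the median change was -0.16 against 0. Il11ra1 was lower in each PS473@NKMOF-101-[Mn] tumor (9.05 to 12.0 FPKM) than in each PS473@CPs tumor (12.2 to 16.5), the only 1 of 23 members without overlap, beside 4.12% of all genes. Its change was -0.34 (SE 0.20, adjusted p = 0.996 in limma), and -0.22 without PS473@CPs 2. Next by p were Il24 (-1.31, SE 0.84), at 0 without that tumor, and Il4i1b (0.21, SE 0.16), at 0.06 without PS473@NKMOF-101-[Mn] 3 (adjusted p = 0.996 for both in limma).

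Against NKMOF-101-[Mn] alone, 0 of 23 members had an unadjusted p under 0.05 by limma, beside 2.3% of all genes, and the median change was -0.25 against -0.04 for all genes. The smallest p values belonged to Il17ra (-0.34, SE 0.21) and Il6st (-0.25, SE 0.18), which were at -0.15 and -0.05 without PS473@NKMOF-101-[Mn] 3, and to Il18 in the other direction (0.28, SE 0.21), at 0.02 without PS473@NKMOF-101-[Mn] 2 (adjusted p = 0.999 for each in limma). Here 0 members were without overlap, beside 7.91% of all genes.

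The comparison with M5@NKMOF-101-[Mn] holds the framework fixed and changes the activity of the ribozyme. In it 1 of 23 members had an unadjusted p under 0.05, beside 0.591% of all genes. Il17b was at 4.82 to 6.21 FPKM in PS473@NKMOF-101-[Mn] and 3.01 to 4.27 in M5@NKMOF-101-[Mn], without overlap, which 4.48% of all genes also showed (log2 fold change 0.50, SE 0.22, 95% interval 0.04 to 0.97, adjusted p = 1 in limma). Leaving out single tumors gave 0.40 to 0.60. Next by p were Il17ra (-0.28, SE 0.21), at -0.08 without PS473@NKMOF-101-[Mn] 3, and Il1rn (-0.45, SE 0.50), at -0.23 without M5@NKMOF-101-[Mn] 3 (adjusted p = 1 for both in limma). The median change of the members was -0.11, against -0.01 for all genes.

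The other groups were each compared with PBS, so that these 4 comparisons, and the first above, share the 3 PBS tumors. Free PS473 had 0 of 23 members with an unadjusted p under 0.05 by limma (1.81% of all genes), with a median change of -0.24 against 0.03 and 19 of 23 lower, beside 59.5% of all genes higher. Its smallest p values belonged to Il36rn (-1.56, SE 0.81), Il17d (0.35, SE 0.20) and Il17rc (-0.27, SE 0.15), with an adjusted p of 1 for each in limma, and Il36rn was at -0.63 without PBS 2. PS473@CPs had 0 (2.09% of all genes), with a median of 0 against -0.01, and Il11ra1 as the only 1 without overlap (5.11% of all genes), at 12.2 to 16.5 FPKM against 9.5 to 11.8 (0.36, SE 0.20). Its smallest p values belonged to Il17d (0.39, SE 0.20), Il2rg (0.66, SE 0.36) and Il17rc (0.28, SE 0.15), with an adjusted p of 1 for each in limma, and Il17rc was at 0.09 without PS473@CPs 2. M5@NKMOF-101-[Mn] had 0 (1.51% of all genes), and Il18bp without overlap (8.11% of all genes), with a change of 0.36 (SE 0.19, adjusted p = 0.999 in limma). Il36g (-1.59, SE 0.84) and Il36rn (-1.36, SE 0.81) completed its smallest p values, and were at -0.57 and -0.43 without PBS 2.

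NKMOF-101-[Mn] against PBS had 1 member with an unadjusted p under 0.05 (1.46% of all genes). Il2rg was at 5.33 to 9.12 FPKM against 2.02 to 4.57 (6.02% of all genes were without overlap), a log2 fold change of 0.81 (SE 0.36, 95% interval 0.04 to 1.58, adjusted p = 1 in limma). Leaving out single tumors gave 0.55 to 0.99. Next by p were Il36g (-1.33, SE 0.84) and Il36rn (-1.15, SE 0.81), at -0.31 and -0.21 without PBS 2 (adjusted p = 1 for both in limma). The 6 T cell markers summed to 4.84 to 8.61 FPKM in NKMOF-101-[Mn] and 4.11 to 5.53 in PBS, and the 7 macrophage markers to 165 to 299 and 91.0 to 143. Each list was above 0 in all these tumors, and its part in the Il2rg difference was not tested.

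The 3 framework groups together against the 3 groups without framework gave 1 of 23 members with an unadjusted p under 0.05, beside 4.56% of all genes. Il18bp was higher by 0.24 (SE 0.11, 95% interval 0.01 to 0.48, adjusted p = 0.9 in limma), at 3.08 to 6.43 FPKM (median 4.29) against 2.68 to 4.44 (median 3.19), which overlap. Without PS473@NKMOF-101-[Mn] 2 the change was 0.15. Next by p were Il2rg (0.38, SE 0.21) and Il36g (-0.71, SE 0.48), the latter at -0.37 without PBS 2 (adjusted p = 0.9 for both in limma). The interaction of ribozyme and framework gave 0 of 23 at an unadjusted p under 0.05 (2.68% of all genes), with Il18 at the smallest p (0.52, SE 0.30, adjusted p = 1), or 0.26 without PS473@NKMOF-101-[Mn] 2, followed by Il17rc (0.32, SE 0.22) and Il3ra (0.31, SE 0.21). The F test over all 6 groups gave 0 (1.99% of all genes), with Il17rc, Il2rg and Il17b at the smallest p values (adjusted p = 1 for each in limma).

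**Figure D4:**
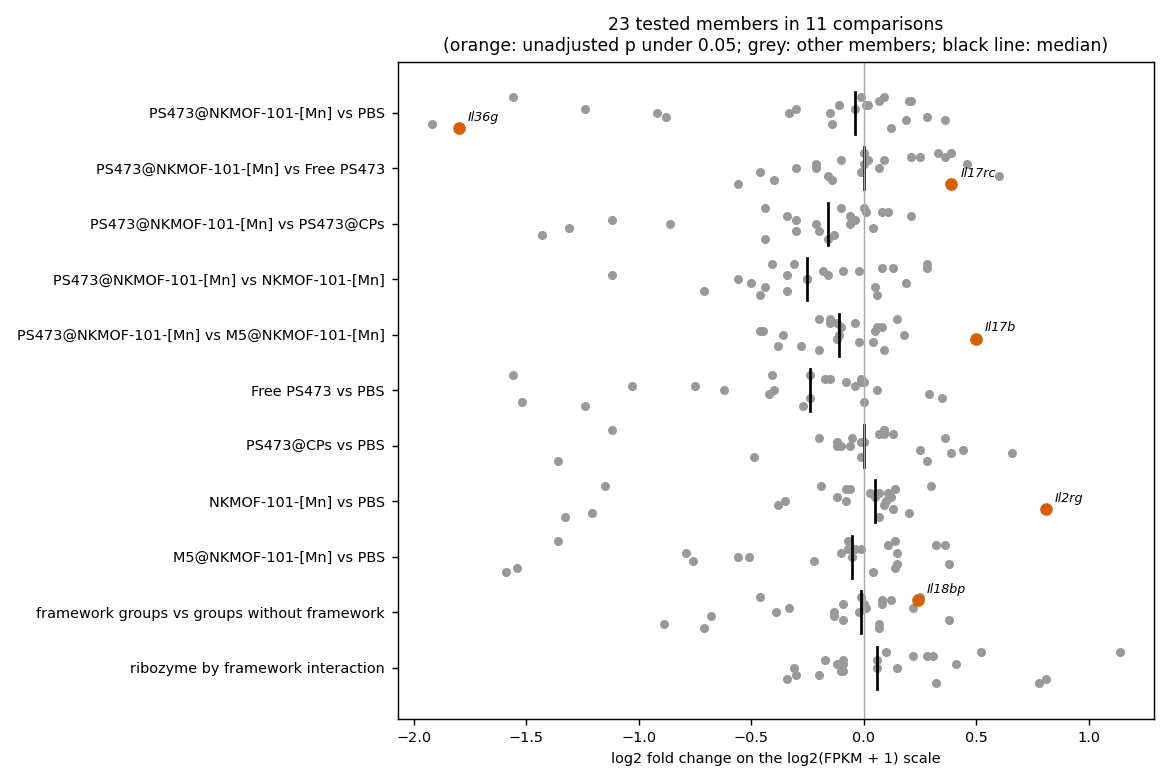
Log2 fold changes, on the log2(FPKM + 1) scale, of the 23 tested members (points) in 11 comparisons (rows). Black lines are medians and orange points, with names, are the 5 members with an unadjusted p under 0.05 (Il36g -1.80, Il17rc 0.39, Il17b 0.50, Il2rg 0.81 and Il18bp 0.24), none of which passed the adjusted threshold. Il36g reached the tested level only through PBS, so nothing rests on its p value.

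Signaling genes that act after the receptors were read from a list of 55 genes: JAK kinases and STATs, feedback inhibitors, adaptors of the IL-1 and IL-17 receptors, and related cytokines and receptor chains. Of these, 37 were tested and 0 passed the adjusted threshold in limma in any comparison. With framework against without, 5 of 37 had an unadjusted p under 0.05, beside 4.56% of all genes, and all 5 were higher. In all, 30 of 37 were higher, beside 47.6% of all genes, with a median change of 0.07 against -0.01 for all genes. Among those 5 was Ptpn6, a phosphatase that limits cytokine receptor signals, with a change of 0.25 (adjusted p = 0.9 in limma).

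Relations to cell markers were examined over the tumors for 18 pairs of a member and a marker list, with the score of a list as its mean log2(FPKM + 1). Where a list split the tumors at a gap of over 25% of its range, the correlation was taken within the larger cluster, which left out 4 tumors for neutrophil, 2 for T cell and 3 for fibroblast markers. Of the 18 pairs, 12 had an adjusted p under 0.05 for Pearson's r (2-sided permutation test, 100000 resamples, Benjamini-Hochberg over 18 pairs), where the smallest unadjusted p that the resamples can give is 1e-05. Scores and members come from the same libraries, and the relations say nothing of which cells make a transcript.

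Il18bp moved with the 12 interferon response genes (r = 0.92, rho = 0.93, n = 18, adjusted permutation p = 9e-05 for both), with r = 0.87 after the 2 tumors farthest from the median were left out and r = 0.93 after group means were subtracted. The summed interferon list ran from 286 to 364 FPKM in PBS, 182 to 320 in Free PS473, 343 to 548 in PS473@CPs, 340 to 439 in NKMOF-101-[Mn], 405 to 455 in M5@NKMOF-101-[Mn] and 266 to 846 in PS473@NKMOF-101-[Mn], and its highest tumor, PS473@NKMOF-101-[Mn] 2, was also the highest for Il18bp. Il27 had r = 0.57 (rho = 0.42, adjusted permutation p = 0.024 and 0.12), which rested on the 2 farthest tumors, since r was 0.23 without them. Il15ra had r = 0.51 (rho = 0.44, adjusted permutation p = 0.0497 and 0.0997), which also rested on the 2 farthest tumors, with r = 0.23 without them, and which missed the threshold without any 1 of 12 tumors. Il15 did not pass (r = 0.46, rho = 0.48, adjusted permutation p = 0.077 and 0.083), with r = 0.14 without them. After group means were subtracted Il15 had r = 0.57 (adjusted permutation p = 0.0192).

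Of the receptor chains paired with T cell markers, Il2rb and Il2rg moved with them, and no such relation was found for Il7r. Il2rg, which macrophages also express, was not paired with macrophage markers. Within 16 tumors Il2rb had r = 0.91 (rho = 0.88, adjusted permutation p = 9e-05 for both) and Il2rg r = 0.76 (rho = 0.81, adjusted permutation p = 0.0015 and 0.0011), with r = 0.83 and 0.75 without the 2 farthest tumors. Il7r, the IL-7 receptor chain of naive and memory T cells, had r = 0.09 (rho = 0.12, adjusted permutation p = 0.74 and 0.66).

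Among macrophage pairs, Il10ra had r = 0.76 (rho = 0.74, n = 18, adjusted permutation p = 0.0013 and 0.0021) and Il4ra r = 0.73 (rho = 0.83, adjusted permutation p = 0.0015 and 9e-05), with r = 0.64 and 0.69 without the 2 farthest tumors. Il4ra was highest in PS473@CPs 2 and PBS 2, whose macrophage scores of 3.86 and 3.87 lay inside the range of 2.3 to 4.91. Those tumors were highest for the skin epithelium and fibroblast lists, whose part in the Il4ra level was not tested. Il3ra had r = -0.28 (rho = -0.23, adjusted permutation p = 0.28 and 0.41). Il1b had r = 0.53 (rho = 0.71, adjusted permutation p = 0.043 and 0.0023), or 0.63 without the 2 farthest tumors, and it missed the threshold without any 1 of 10 tumors.

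Within the 14 tumors of low neutrophil score, Il1b had r = 0.78 with neutrophil markers (rho = 0.80, adjusted permutation p = 0.0014 and 0.0021) and Il1rn r = 0.77 (rho = 0.80, adjusted permutation p = 0.0017 and 0.0022), with r = 0.72 and 0.71 without the 2 farthest tumors. Il1r2 had r = 0.49 (rho = 0.27, adjusted permutation p = 0.087 and 0.41), and r = 0.67 after group means were subtracted (adjusted permutation p = 0.0165). In these 14 tumors the neutrophil markers summed to only 0.481 to 21.5 FPKM. Their highest scores were in M5@NKMOF-101-[Mn] 3 (1.56), NKMOF-101-[Mn] 1 (1.35) and NKMOF-101-[Mn] 3 (1.17), with skin epithelium scores of 4.9, 6.49 and 2.36. PS473@NKMOF-101-[Mn] 2 and PS473@CPs 3 had skin epithelium scores of 4.94 and 3.09 but neutrophil scores of 0.55 and 0.45. The part of skin tissue in these relations was not tested. The other 4 tumors were PBS 2, PBS 3, Free PS473 3 and PS473@CPs 2, and no r was taken within them. Their neutrophil sums were 473, 151, 158 and 305 FPKM, in this order. Il1b was at 1.49, 0.645, 2.82 and 2.99 FPKM in them, and Il1rn at 4.14, 1.06, 2.74 and 4.76.

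With fibroblast markers, within 15 tumors, Il33 had r = 0.82 (rho = 0.90, adjusted permutation p = 0.00024 and 9e-05) and r = 0.74 without the 2 farthest. Il6 had r = 0.57 (rho = 0.52, adjusted permutation p = 0.0296 and 0.0845), which rested on the 2 farthest tumors, with r = 0.45 and an adjusted permutation p of 0.215 without them. Il11 had r = 0.34 (rho = 0.21, adjusted permutation p = 0.25 and 0.47), and r = 0.54 after group means were subtracted (adjusted permutation p = 0.0454). Il18 had r = 0.41 with the skin epithelium list (rho = 0.38, n = 18, adjusted permutation p = 0.1 and 0.16). The fibroblast and skin epithelium lists were both highest in PBS 2 and PS473@CPs 2, among others, and the part of either tissue in the Il33 level was not tested.

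**Figure D5:**
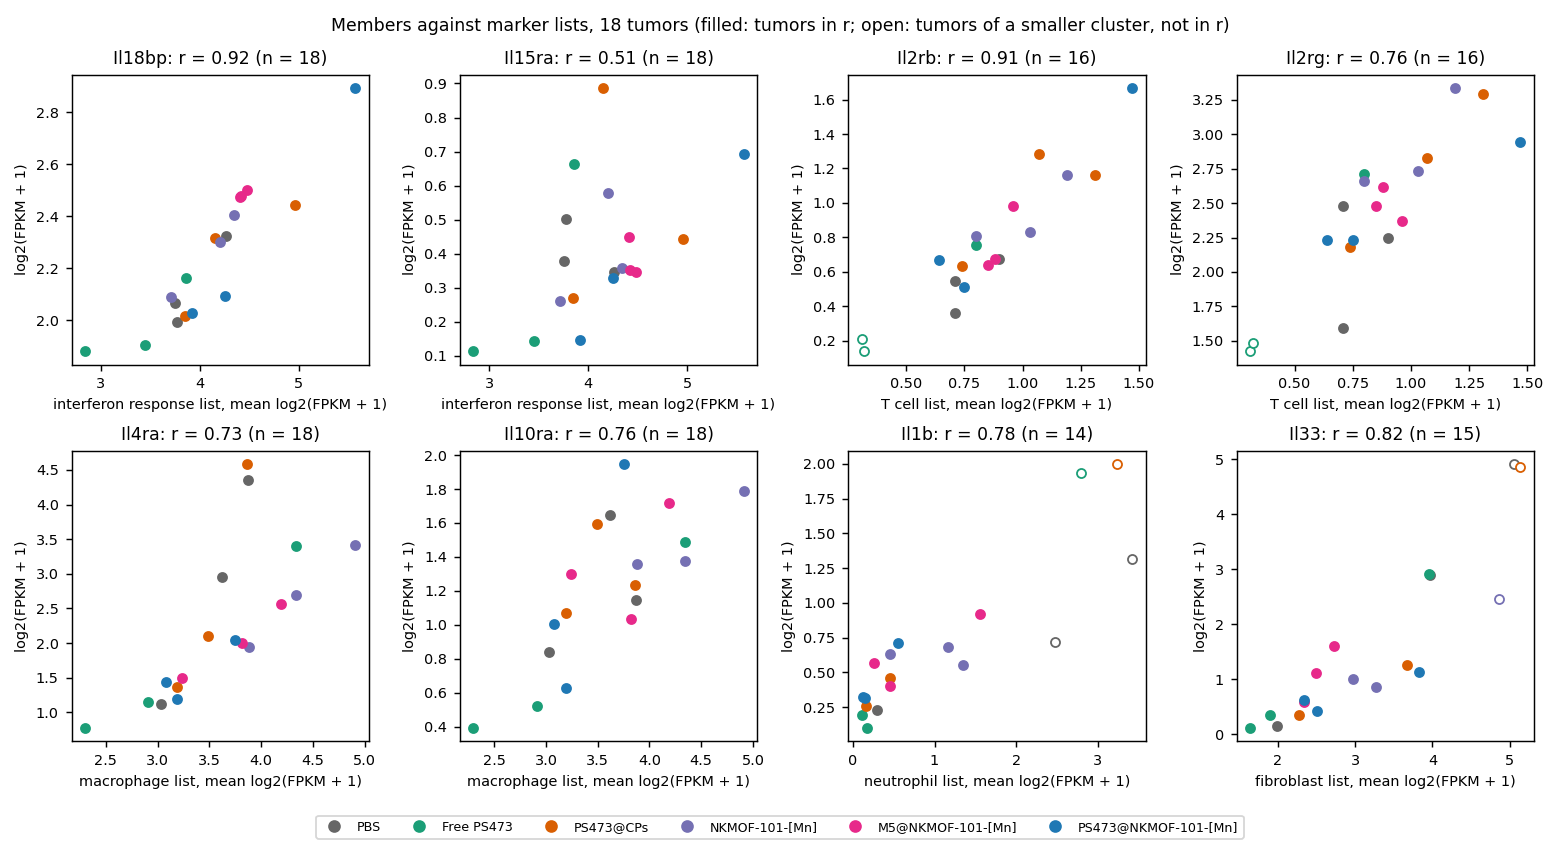
Level of 8 members (y axis, log2(FPKM + 1)) against the score of a marker list (x axis, mean log2(FPKM + 1) of its genes) in 18 tumors colored by group, filled points being those in r. Il18bp (r = 0.92) and Il2rb (r = 0.91) lie near a line, and Il15ra (r = 0.51) does not.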

How the data were processed

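Tumor RNA was enriched for poly(A) transcripts and sequenced. The authors deposited FPKM values for 41079 genes with 1 length per gene. The submitters' processing notes name build GRCm39, and the aligner, counter, strand setting and annotation are not given in the sources used here. Fragments assigned per tumor (17212000 to 28401000) were recovered from the steps between low FPKM values, of which 45.4% to 49.6% were whole fragments within 0.02, so a count model was not used. That depth limits weakly expressed members, and intervals cover the spread between tumors.

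FPKM values were taken as log2(FPKM + 1). The 12357 genes that averaged 1 FPKM or more entered a fit with limma 3.58.1 in R 4.3.3 (1 mean per group, 18 tumors, trended prior variance), with Benjamini-Hochberg adjustment over all genes. Correlations used 100000 permutations (Python 3.11.15, numpy 2.4.6, scipy 1.17.1, pandas 2.3.3, matplotlib 3.10.9). The procedures were tested on simulated data. Tumors were grouped by the labels, 0 tumor columns were left unused and 0 pairs of tumors held identical values. Members, lists, pairs and comparisons were chosen with earlier results of these data known. By the naming rule, levels are given for members that averaged 1 FPKM or more, for classical cytokines and for members of the 18 pairs, and fold changes for the 3 members with the smallest p in a comparison. Il36a, Il36b, Il19, Il6ra, Il2ra, Il13ra2, Il4i1, Il17rb, Il11ra2 and Il11ra3, and members named because their groups did not overlap, were chosen after their values were seen. The cluster limit of 25% and the Il6 test were set after the values were seen. Alternatives were a pseudocount of 0.1, other filters, quantile and upper-quartile scaling, fits of the compared groups alone, no trend, a replicate block, no fold threshold and each tumor left out. The skin score covariate and the fit without the 2 tumors of highest skin score were added after seeing the data.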

Additional observations from a re-analysis of the deposited data

How the results depend on the processing

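The count of members past the adjusted threshold was 0 in all 231 alternative fits of the 12 comparisons. None of the 612 alternative values of the named fold changes turned its sign, and their lowest adjusted p was 0.564. The change of Il24 in PS473@NKMOF-101-[Mn] against PS473@CPs was 0 without PS473@CPs 2, the only tumor of either group above 0. Replicate numbers do not pair the tumors: deviations of same-numbered tumors had r from -0.73 to 0.72 (median -0.02, 45 pairs of tumors), and with a replicate block 0 members were called and at most 1 member per comparison had an unadjusted p under 0.05. Of the 414 alternative values for the 18 pairs, 371 kept their call, 8 gained it and 35 lost it. Those that gained it include Il15, Il1r2 and Il11 after group means were subtracted. Il1b with macrophage markers lost it without any 1 of 10 tumors (all PBS, Free PS473 and PS473@NKMOF-101-[Mn] tumors and PS473@CPs 1), Il6 with fibroblast markers without PBS 1, Free PS473 2 or Free PS473 3, Il27 with interferon response genes without Free PS473 2 or PS473@NKMOF-101-[Mn] 2, and Il15ra without any 1 of 12 tumors (all but PBS 2, Free PS473 3, PS473@CPs 2, PS473@CPs 3, M5@NKMOF-101-[Mn] 1 and M5@NKMOF-101-[Mn] 3), with r of 0.46 to 0.65, 0.45 to 0.65, 0.42 to 0.63 and 0.39 to 0.62 over the tumors left out. Depth limits the 25 members with a mean under 0.1 FPKM.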
